A study of Homo sapiens with 39 samples.

Results

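NPM1 encodes nucleophosmin, and it is described here as 1 gene across every sample of a study of the RNA-binding protein U2AF1. It was found by its symbol, as 1 of 21530 gene symbols in the polysome table and 1 of 26334 in the RNA immunoprecipitation (RIP) tables. Clusters carrying its name numbered 10 of 28828 in the PAR-CLIP list of S34F protein in cytoplasm, 2 of 26613 in that of WT protein in cytoplasm and 18 of 92895 in that of chromatin-bound WT protein. U2AF1 is the small subunit of the factor that recognises the end of introns, and S34F is a recurrent cancer mutation in it. Polysome gradients and RIP were made from human bronchial epithelial cells (HBEC), an airway epithelial line, in a U2AF1 S34F line, a line labelled Frame Shift (FS) and a WT line. Which allele carries the frame shift, and whether a line is 1 clone, is not given in the sources used here. PAR-CLIP, in which a protein's contacts on RNA show as T-to-C conversions, used Flp-In-293 cells, a derivative of the embryonic kidney line HEK 293. These cells all expressed FLAG-HA tagged U2AF1 on top of their own, as S34F protein in cytoplasm or as WT protein in cytoplasm or chromatin.

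Nucleophosmin is an abundant, mainly nucleolar protein that shuttles between nucleus and cytoplasm. It helps to assemble and export ribosomes, acts as a histone chaperone, and takes part in centrosome duplication and in the control of the ARF and p53 pathway. Its gene is among the most often mutated in acute myeloid leukaemia, and its mRNA belongs to a growth-linked group whose translation responds to nutrient signals. The labels of the study ask how U2AF1 binding relates to translation, and NPM1 was proposed as a target of that regulation.

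Each line gave 8 polysome libraries (monosomes, 2, 3, 4, 5, 6 and 7 ribosomes, and a pooled 8-10 fraction) and 3 RIP libraries (RNA precipitated with U2AF1, called IP, RNA from a mock precipitation with IgG, and the cytosolic RNA, called Cytosol). There was thus 1 library per line and kind. Total counts per library ran from 2440145 to 13367574 in the gradients and from 2582141 to 29769968 in RIP. NPM1 itself had 1075 to 15466 counts per gradient library and 778 to 11859 per RIP library, so counting error was small beside the spread between lines. In the cytosolic RNA, the 5 basal epithelial markers summed to 12290 to 22692 CPM (counts after each library was brought to a total of 1000000), most of it from KRT5 (8135 to 18342 CPM) and ITGB4 (2258 to 4097 CPM). KRT14 was low, at 0.016 to 29.3 CPM, and KRT17 varied between 11.9 and 957 CPM. The sums were 7.24 to 11.1 CPM for 4 fibroblast markers, 0 to 1.47 CPM for 3 leukocyte markers and 0 to 1.58 CPM for 3 endothelial markers. All libraries are bulk extracts, in which fewer cells that hold an RNA and less of it per cell cannot be told apart. A CPM in a gradient fraction is a share of that fraction's RNA, not the share of NPM1 mRNA that sat there, since each fraction was made into a library of its own.

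The RIP tables place NPM1 on the plus strand at chr5:170814708-170837888. The genome build is not named in the files or labels, and all positions below are those of the deposited files. The PAR-CLIP lists put U2AF1 contacts in different regions of the gene. In the WT cytoplasm list, 53 of the 65 NPM1 reads (81.5%) lay in 1 cluster annotated as 5'utr, 156 bases after the gene's start. Its other cluster, of 12 reads, was intronic and began 426 bases after the start. The S34F cytoplasm list held no NPM1 cluster annotated as 5'utr: its 97 reads fell in 7 intron clusters of 5 to 20 reads, 2 clusters across an intron and coding boundary with 23 and 5 reads, and 1 cluster of 5 reads annotated as 3'utr. In the WT chromatin list, 6 clusters across intron and coding boundaries held 544 of 854 reads (63.7%), 11 intron clusters held 14 to 82 reads each and 1 coding cluster held 8.

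The contact sequences are shown because they are where the lists differ. The first is the beginning of the WT cytoplasm 5'utr cluster, with every T, the base at which a conversion can be read, in capitals. The other 6 are the boundary clusters of the WT chromatin list, up to 20 bases through the AG and up to 10 after it. Capitals there mark the AG with the base before it, where the AG is the one with the highest share of C and T in the 12 bases before it.
5'utr cluster of WT cytoplasm, chr5:170814864-170814893: gTgaTTccgTccTgcgcggTTgTTcTcTgg
Boundary cluster of WT chromatin, chr5:170817036-170817064: cttttttcttcatttaCAGgttgtgaact
Boundary cluster of WT chromatin, chr5:170819707-170819723: atttTAGctgtggagga
Boundary cluster of WT chromatin, chr5:170827827-170827850: aaatttctaattgCAGtctatacg
Boundary cluster of WT chromatin, chr5:170832293-170832315: atttctttttCAGggacaagaat
Boundary cluster of WT chromatin, chr5:170834684-170834713: taatgcttttgtcttaaTAGggtggttctc
Boundary cluster of WT chromatin, chr5:170837512-170837540: tctttttttttttttcCAGgctattcaag
U2AF1 is known to read the AG at the end of an intron, beside the pyrimidine tract that its partner U2AF2 binds. In the 6 boundary clusters the marked AG followed C in 4 and T in 2. The longest run of C and T anywhere in a cluster, before or after the AG, ranged from 4 to 17 bases. It is limited by where the cluster ends, so it does not measure the tract itself. Among 14818 boundary clusters of that list with such an AG, the base before it was C in 50.8% and T in 34.9%.

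The whole 5'utr cluster covered 70 bases, chr5:170814864-170814933, of which 71.4% were C or T and 26 were T. It held 53 reads, of which 23 are listed as unique, with 18 conversion events at 8 positions. Its T-to-C percentage was 26.9%, and only 9.67% of the 941 clusters annotated as 5'utr in that list had as low a value. By reads it was among the larger ones, as 4.68% of those 941 clusters had 53 reads or more. Its first 30 bases occur once in the windows that RefSeq places around NPM1 starts (GRCh38.p14, 2 windows), beginning at base 12 of the transcript. The transcript at that start opens with an unbroken run of 8 C and T bases, a kind of beginning known from terminal oligopyrimidine (TOP) mRNAs, which code for ribosomal proteins and translation factors. A run of at least 8 from the start is present in 1.83% of 35116 RefSeq windows.

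**Figure D1:**
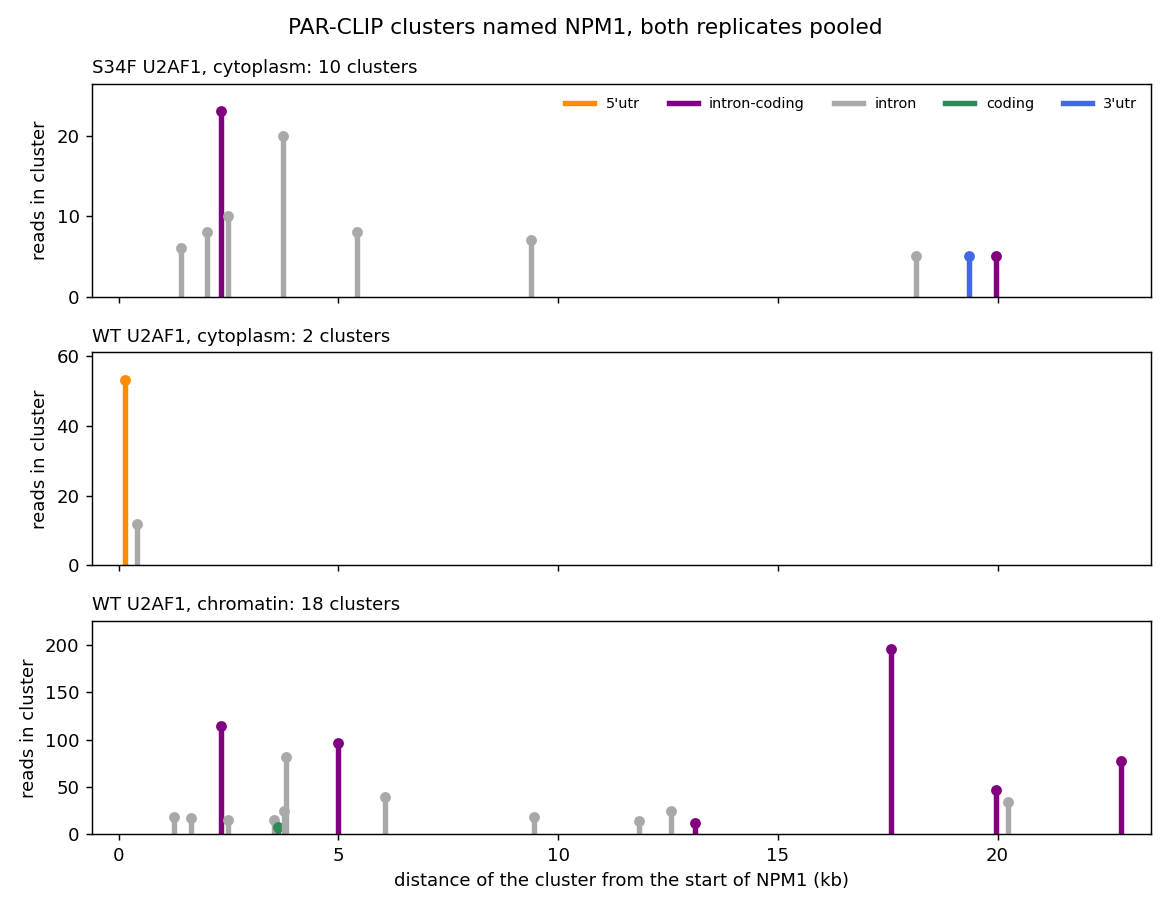
Reads in each PAR-CLIP cluster named NPM1, by the distance of the cluster from the start of the gene in kb, for the S34F cytoplasm, WT cytoplasm and WT chromatin lists, with the authors' annotation as colour. Vertical scales differ between panels, and the 53-read cluster near the start appears in the WT cytoplasm panel alone.

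No NPM1 cluster of the S34F cytoplasm list shared a base with a WT cytoplasm cluster, and the WT cytoplasm 5'utr cluster also had no overlap in WT chromatin. Sparse overlap was the rule in these lists: 9.41% of all S34F cytoplasm clusters shared at least 1 base with a WT cytoplasm cluster, and 10.7% of WT cytoplasm 5'utr clusters shared one with an S34F cytoplasm cluster. Among the 44 WT cytoplasm 5'utr clusters with 53 reads or more, 9 (20.5%) did. The lists record clusters with at least 4 reads and at least 2 conversion positions, so a cluster that is not listed is not a count of 0. Of all S34F boundary clusters, 59.4% overlapped a WT chromatin cluster of any annotation. Both S34F boundary clusters of NPM1 overlapped WT chromatin boundary clusters, namely those beginning with ctttttt and with taatgct above. The first had 23 reads in S34F cytoplasm and 115 in WT chromatin, and the other had 5 in S34F cytoplasm and 47 in WT chromatin. Reads listed as unique were closer: 17 in S34F cytoplasm and 15 in WT chromatin for the first, and 2 and 7 for the other.

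Summed over the gene, NPM1 held 147 reads per 1000000 cluster reads in S34F cytoplasm (exact 95% binomial interval 120 to 180), 124 in WT cytoplasm (95.4 to 157) and 181 in WT chromatin (169 to 193). The 2 cytoplasm intervals overlap. Replicates A and B are pooled in each list, so these intervals cover counting error only and no test between the proteins can be made. They treat every read as independent, although fewer reads are listed as unique, so they may be too narrow even for counting error. The ratio of S34F to WT in cytoplasm depended on what was counted: it was 0.25 on the log2 scale for reads, -0.73 for clusters of at least 20 reads and 1.33 for conversion events. Ranked by reads among the named genes of its list, NPM1 was number 1042 of 6918 in S34F cytoplasm, 1659 of 7569 in WT cytoplasm and 1288 of 9481 in WT chromatin.

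A 5'utr cluster in WT cytoplasm that is not matched by one in S34F cytoplasm was common. Of 810 genes with such a cluster in WT cytoplasm, 165 (20.4%) also had one in S34F cytoplasm, where 574 genes had one in all. Genes with a cluster of any kind numbered 7569 in WT cytoplasm and 6918 in S34F cytoplasm. In S34F cytoplasm they included 13 of the TOP list below, 17 nucleolar genes and 7 nucleophosmin partners. In WT cytoplasm they included 13, 19 and 7. Whether the share with a 5'utr cluster differed between a list and all genes was not tested. Among the 16 symbols listed as TOP mRNAs, 0 had a 5'utr cluster in S34F cytoplasm and 3 had one in WT cytoplasm: the elongation factor gene EEF1A1 with 40 reads, the histone chaperone gene NAP1L1 with 16 reads and the ribosomal protein gene RPS6 with 8 reads. Of 24 genes for nucleolar ribosome assembly, 2 had one in S34F cytoplasm (FBL with 61 reads and NOP2 with 11, both for RNA methyltransferases) and 2 others in WT cytoplasm. Those were NCL, for the nucleolar protein nucleolin, with 41 reads and GAR1, for a subunit of the pseudouridylation complex, with 5. Of 8 nucleophosmin partners, 3 had one in S34F cytoplasm and 3 in WT cytoplasm, with 2 in common. XPO1, for the export receptor that carries nucleophosmin, had 11 reads in S34F cytoplasm and 64 in WT cytoplasm, and the DNA repair gene APEX1 had 11 in S34F cytoplasm and 24 in WT cytoplasm. The 53 reads of NPM1 in WT cytoplasm were thus more than those of the listed TOP and nucleolar genes and fewer than those of XPO1.

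In RIP, NPM1 was higher in the U2AF1 precipitate than in IgG and in Cytosol in all 3 lines, but the difference did not pass the test. The IP libraries had 541 CPM in S34F, 523 CPM in FS and 638 CPM in WT. The IgG libraries had 450 CPM in S34F, 263 CPM in FS and 245 CPM in WT. Cytosol had 507 CPM in S34F, 398 CPM in FS and 365 CPM in WT. The 3 IP libraries were thus above all 3 IgG and all 3 Cytosol libraries, and the S34F line had the highest IgG and Cytosol values. Means were 567 ± 61.8 CPM in IP, 319 ± 113 CPM in IgG and 424 ± 74.0 CPM in Cytosol (SD, n = 3 lines). Per length, NPM1 ranked 278, 333 and 380 by counts in the Cytosol libraries of S34F, FS and WT, among 14636 to 14975 genes with counts.

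The ratio of IP to IgG was 1.20 in S34F, 1.99 in FS and 2.59 in WT. The ratio of IP to Cytosol was 1.07 in S34F, 1.31 in FS and 1.74 in WT. With 1 library per line and kind, these differences between lines could not be tested. For scale, 31.7% of 3225 genes with a median of at least 50 CPM had an IP to IgG ratio at or above NPM1's in S34F, 11.0% in FS and 6.39% in WT. On the same scale, the Cytosol level of NPM1 in S34F was 1.39 times that in WT, a ratio reached by 9.27% of those genes.

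Across lines, edgeR's quasi-likelihood fit with line as a block gave a log2 fold of 0.71 ± 0.21 (SE) for IP over IgG, with a Benjamini-Hochberg adjusted p of 0.136 over 11612 genes. In that comparison 26 genes (0.224%) were called higher and 130 (1.12%) lower at an adjusted p under 0.05, and 2.68% of genes had a smaller p than NPM1. DESeq2 on the same design gave 0.68 with an adjusted p of 0.0247 and so did call NPM1. DESeq2 called more genes than edgeR, with 226 of 11612 higher and 441 lower. Over all alternatives the adjusted p ranged between 0.0247 and 0.539. IP over Cytosol was 0.42 ± 0.21 with an edgeR adjusted p of 0.696, where 57 genes (0.491%) were called higher and 5 (0.0431%) lower. IgG over Cytosol was -0.29 ± 0.21 with an edgeR adjusted p of 0.814, where 77 genes (0.663%) were called higher and 2 (0.0172%) lower. With line as a block, these p-values rest on how far the differences between kinds of library varied among the 3 lines. The estimate of that spread also draws on the other genes of the fit. Genotype and replicate are the same thing in these lines.

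**Figure D2:**
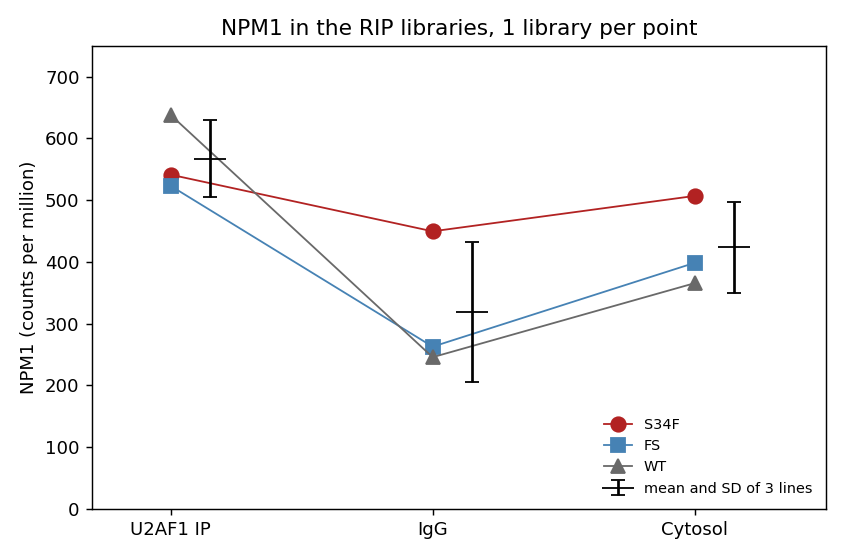
NPM1 level in CPM in the U2AF1 IP, IgG and Cytosol libraries, 1 point per library, with S34F, FS and WT as colours and the mean and SD of the 3 lines beside the points. The 3 IP libraries lie between 523 and 638 CPM, above the other 6 libraries.

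Among the gene lists, TOP mRNAs had the median fold closest to that of NPM1 in IP over IgG. Of 15 listed TOP mRNAs tested, 4 were called higher in IP over IgG (EEF1A1, EIF3F, RPLP0 and RPS6) and 0 lower. Of all genes tested, 0.224% were called higher and 1.12% lower. The list's median log2 fold was 0.79 beside 0.03 over all genes tested. RPS6 had the largest fold of the 4, 0.97 ± 0.16 with an edgeR adjusted p of 0.00707. EEF1A1, RPLP0 and RPS6 were also called in IP over Cytosol, where the list's median was 0.61 beside -0.07 over all genes. None of 24 nucleolar ribosome assembly genes was called in either comparison, and their medians were -0.10 and -0.40. Calls were rare over Cytosol too, at 0.491% of all genes higher and 0.0431% lower. A count of 0 in 24 was thus near the share of all genes in both comparisons. Of 8 genes whose proteins are partners of nucleophosmin, RPL5, which codes for a protein of the large ribosomal subunit, was called in both, with a log2 fold of 0.98 over IgG and 0.96 over Cytosol (edgeR adjusted p 0.0107 and 0.0117). NPM3, the other measured nucleophosmin family gene, had 0.15 ± 0.30 in IP over IgG (edgeR adjusted p 0.883).

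Along the gradients, on unscaled CPM, NPM1 was high in the light polysomes, low at 4 to 6 ribosomes and high again in the 8-10 fraction. In the S34F line the monosome library had 327 CPM and those with 2, 3, 4, 5, 6 and 7 ribosomes had 509, 370, 264, 196, 246 and 368 CPM. The S34F 8-10 library had 1484 CPM, the highest NPM1 level of all 24. In the FS line the monosome library had 566 CPM, those with 2 to 7 ribosomes had 837, 833, 518, 435, 418 and 423 CPM, and the 8-10 library had 905 CPM. In the WT line the monosome library had 392 CPM, those with 2 to 7 ribosomes had 440, 419, 217, 255, 266 and 284 CPM, and the 8-10 library had 398 CPM. On that scale the lowest value of each line lay at 4, 5 or 6 ribosomes. The highest was in the 8-10 fraction in S34F and FS and at 2 ribosomes in WT. The edgeR fits below also scale each library by a TMM factor. In WT this factor was 1.04 in monosomes, 1.26 at 2 ribosomes and 0.786 at 3. Such scaling would put the highest WT value at 3 ribosomes, and WT at 2 ribosomes below WT monosomes. The lowest FS value would then lie at 7 ribosomes.

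**Figure D3:**
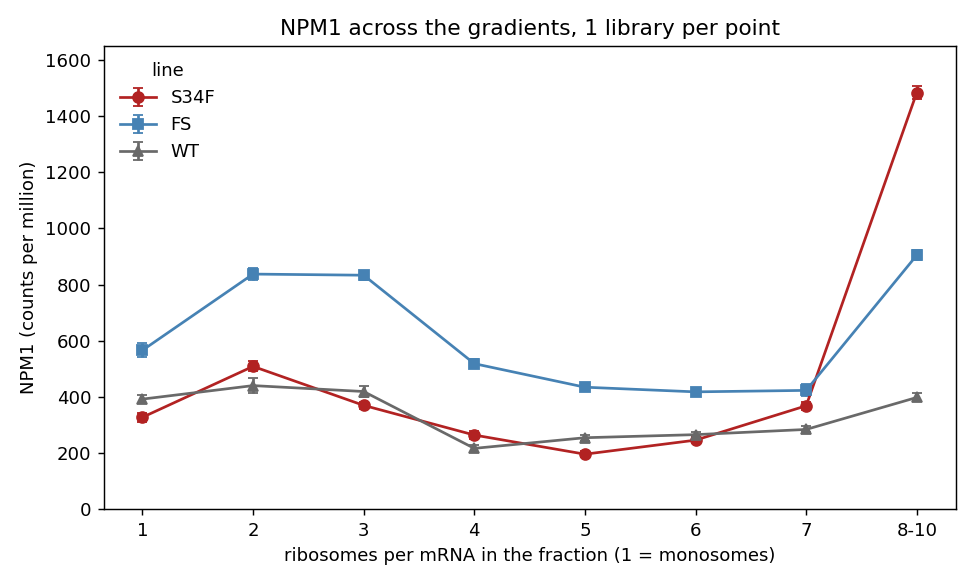
NPM1 level in CPM in each gradient fraction of the S34F, FS and WT lines, 1 library per point, with 95% counting intervals that are mostly smaller than the points. The S34F library of the 8-10 fraction stands at 1484 CPM, against 905 CPM in FS and 398 CPM in WT.

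Over lines, the monosome mean was 429 ± 123 CPM, and the means of the next fractions were 596 ± 212 at 2 ribosomes, 541 ± 255 at 3, 333 ± 162 at 4, 295 ± 124 at 5, 310 ± 94.1 at 6 and 359 ± 70.1 at 7 (SD, n = 3 lines). In the 8-10 fraction the mean was 929 ± 543 CPM. Neighbouring fractions in this order overlapped in their single values. The test across all 8 fractions in edgeR gave an adjusted p of 0.00127 for NPM1, and 59.7% of 15945 genes were called in that test.

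Against monosomes, the 8-10 fraction was higher by a log2 fold of 1.17 ± 0.34 with an edgeR adjusted p of 0.00713, where 28.3% of genes were called higher. Pooled over lines, the single values overlapped, since the 8-10 libraries spanned 398 to 1484 CPM and the monosome libraries 327 to 566 CPM. Within lines, the ratio of the 8-10 library to monosomes on CPM + 1 was 4.52 in S34F, 1.60 in FS and 1.02 in WT. The S34F 8-10 library decided this call. Without that library, an alternative added after seeing the data, the fold was 0.61 ± 0.29 and the edgeR adjusted p 0.0931. Without the S34F line it was 0.62 and 0.185, while without FS or WT the fold was 1.36 and 1.53. None of the other fractions differed from monosomes at an adjusted p under 0.05, with folds of 0.49 at 2 ribosomes, 0.65 at 3, -0.56 at 4, -0.27 at 5, -0.20 at 6 and 0.11 at 7 (edgeR adjusted p 0.192 to 0.999). In these 6 comparisons 0.0502%, 12.9%, 0.521%, 18.9%, 20.7% and 24.3% of genes were called higher, and 0%, 1.02%, 0.201%, 7.67%, 10.4% and 15.7% lower. The value at 7 ribosomes turned to -0.029 under DESeq2 size factors.

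The heavy polysomes as a group (6, 7 and 8-10 ribosomes) against 2 and 3 ribosomes gave -0.22 ± 0.22 with an edgeR adjusted p of 0.448, where 22.8% of genes were called higher and 16.6% lower. It was -0.40 without the S34F 8-10 library and -0.52 without the S34F line (edgeR adjusted p 0.0646 and 0.089), and -0.011 without the FS line. Each line's own mean log2 ratio of CPM + 1 was 0.24 in S34F, -0.62 in FS and -0.47 in WT.

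**Figure D4:**
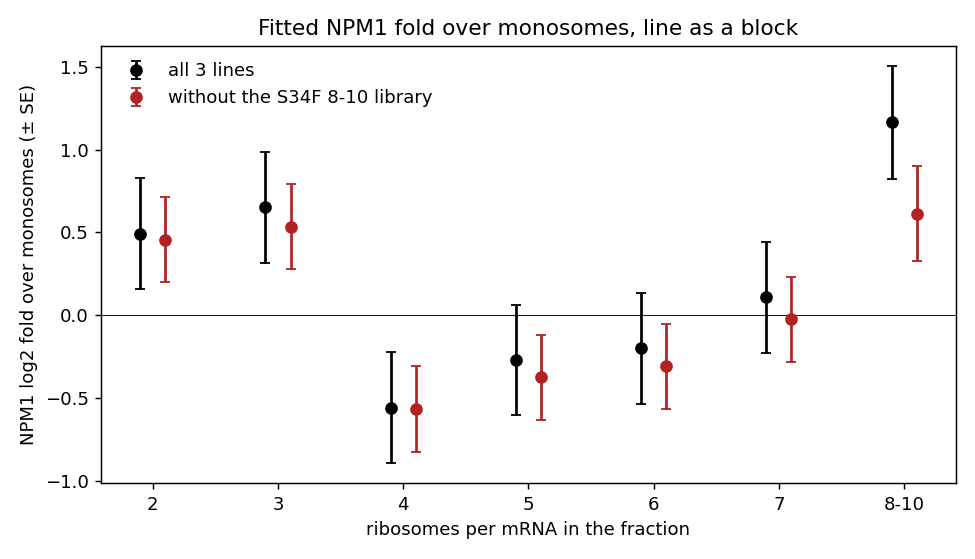
Fitted log2 fold of NPM1 over monosomes for each other fraction, with its standard error, from all 3 lines and from the fit without the S34F 8-10 library. The 8-10 value is 1.17 with all libraries and 0.61 without that one.

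S34F differed most from WT in the 8-10 fraction. NPM1 was 3.72-fold higher in S34F than in WT there, a log2 ratio of 1.90 on CPM + 1. Of 9501 genes with at least 500 counts per gradient, 2.12% reached that ratio. It is on unscaled CPM, and the TMM factors of these 2 libraries, 1.16 in S34F and 0.888 in WT, would lower it. A ratio of at least 2-fold was common, at 19.9% of those genes. In the other 7 fractions S34F over WT on unscaled CPM ran between 0.771-fold (at 5 ribosomes) and 1.30-fold (at 7). On that scale the S34F level was higher in 4 of 8 fractions in all. FS was above WT in 8 of 8 fractions, between 1.44-fold in monosomes and 2.39-fold at 4 ribosomes, and 26.5% of genes did the same. In the 8-10 fraction FS was 2.27-fold above WT, and 10.1% of genes were at least 2-fold higher. The mean of the 8 log2 ratios was 0.23 for S34F over WT, where 1.92% of genes were at least 2-fold higher, and 0.86 for FS over WT, where 11.0% were. Without the 8-10 fraction the S34F mean was -0.0085 and the FS mean 0.81. Both comparisons share the WT libraries.

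**Figure D5:**
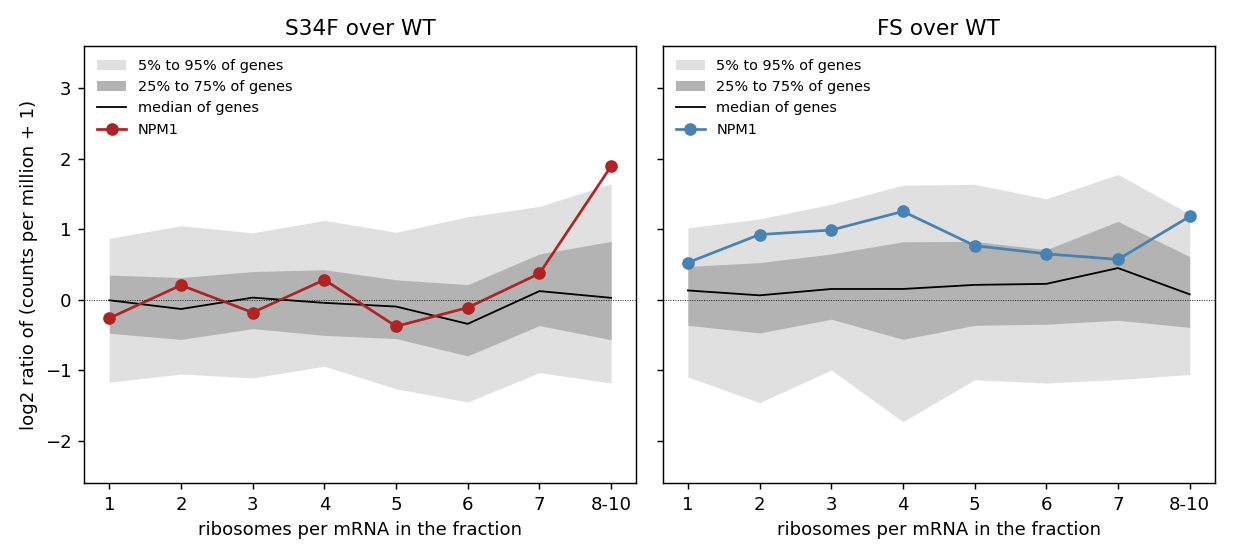
Log2 ratio of CPM + 1 in S34F over WT and in FS over WT, by fraction, for NPM1 (points) and for 9501 genes (median line, bands of 25% to 75% and 5% to 95%). NPM1 leaves the outer band in the 8-10 fraction of S34F over WT, at 1.90, and is above the median of genes in all 8 fractions of FS over WT.

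The ribosome index, the CPM-weighted mean number of ribosomes over the 8 fractions with 9 for the 8-10 fraction, was 5.82 for NPM1 in S34F, 4.58 in FS and 4.43 in WT. The median index of the 9501 genes was 4.94 in S34F, 4.82 in FS and 4.76 in WT, so NPM1 lay above the median in S34F and below it in the other 2 lines. Each fraction's library was scaled to the same total, so the index is not the mean number of ribosomes per NPM1 mRNA. S34F minus WT in the index was 1.39, a difference reached by 2.14% of genes, while 23.4% had one of at least 0.5. Without the 8-10 fraction that difference was 0.12, so nearly all of it came from the 8-10 libraries, and with TMM-scaled CPM it was 0.97. FS minus WT was 0.15, where 7.8% of genes had a difference of at least 0.5, and it was -0.075 with TMM-scaled CPM. With 1 gradient per line, no test between lines was possible.

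The level over the whole gradient can be set beside the cytosolic RNA of the same line, although the 2 tables were prepared separately. The mean gradient level was 471 CPM in S34F, 617 CPM in FS and 334 CPM in WT. Relative to Cytosol this was 0.929 in S34F, 1.55 in FS and 0.914 in WT. The higher FS level in the gradient was thus not matched in FS Cytosol, which was 1.09 times WT Cytosol.

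Nucleolar ribosome assembly genes took the same direction as NPM1 in the 8-10 fraction, and TOP mRNAs the opposite one. Of 24 nucleolar genes, 18 were called higher in the 8-10 fraction over monosomes, against 28.3% of all genes, and 0 lower, with a median log2 fold of 1.04 beside 0.08 over all genes. NCL had 2.49 ± 0.33, GAR1 2.95 ± 0.41 and DDX21, which codes for a nucleolar RNA helicase, 1.63 ± 0.31 (edgeR adjusted p 1.6e-05, 1.9e-05 and 0.000262). Of 15 TOP mRNAs tested, 0 were called higher and 9 lower, against 21.6% of all genes called lower, with a median of -1.11. PABPC1, for the poly(A)-binding protein, had -2.70 ± 0.38, and EEF2, for an elongation factor, had -2.19 ± 0.39. For heavy over light polysomes, 14 of the 15 TOP mRNAs were called lower, against 16.6% of all genes, with a median of -1.41. In that comparison 8 of 24 nucleolar genes were called higher, beside 22.8% of all genes, and 1, FBL, lower at -1.55 ± 0.21. The nucleolar median there was 0.28, whereas NPM1 had -0.22, and 21 of the 24 genes lay above NPM1. NPM3 was called higher in both comparisons, with 1.56 ± 0.40 over monosomes (edgeR adjusted p 0.00265). Both genes of the U2AF factor, U2AF1 with 1.73 ± 0.42 and U2AF2 with 1.47 ± 0.34, were called higher in the 8-10 fraction as well.

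Some of these genes also had an S34F excess in the 8-10 fraction, and others were lower in S34F. S34F over WT was at least 2-fold there in 7 of 22 nucleolar genes with enough counts, 4 of 15 TOP mRNAs and 2 of 8 nucleophosmin partners, beside the 19.9% of all genes given above. The TOP and partner counts were near that share. GNL3, for the nucleolar GTPase nucleostemin, had a log2 ratio of 1.96, NAP1L1 1.89, XPO1 1.84, DDX21 1.71 and NCL 1.62, beside 1.90 for NPM1. NPM3 had -0.95. The nucleolar list's median was 0.28 and the TOP list's 0.25, so NPM1 was near the top of both ranges. The partner list's median was -0.10, and the median of all genes was 0.03.

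The genes whose gradient profile was most like that of NPM1 were found by Pearson's r over the 24 libraries, on log2(CPM + 1) with each line's mean subtracted, among 9500 genes whose median r was 0.01. They were CLEC2D at 0.94, RBMX at 0.92, CCT6A at 0.91, GDI2 at 0.91 and CCT4 at 0.90. CLEC2D codes for a lectin-like receptor, and RefSeq lists the processed pseudogene NPM1P7 within its span, so reads of NPM1 and of CLEC2D may not be separate in the deposited counts. RefSeq lists 50 such NPM1 pseudogenes, and none has an entry of its own in either table, so how the authors' counting treated reads from them is unknown. RBMX codes for an RNA-binding protein of the spliceosome, CCT6A and CCT4 for subunits of the chaperonin that folds actin and tubulin, and GDI2 for a regulator of Rab GTPases. CCT6A, for example, had 195 CPM in the 8-10 fraction of S34F, 145 CPM in that of FS and 79.9 CPM in that of WT, against 35.8 CPM, 63.9 CPM and 55.1 CPM in the monosomes of S34F, FS and WT. Without the S34F 8-10 library the 5 values of r were 0.80 to 0.88, and CLEC2D was then number 2, CCT4 number 7, RBMX number 10, GDI2 number 14 and CCT6A number 20, so which genes are most alike depends on that library. Libraries of 1 line share depth and handling, and these values are a description.

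Over the 9 RIP libraries, the 5 most alike of 3224 genes were PCIF1 at 0.98, and EIF3H, RPS28, EXT1 and RAB40C at 0.97 each, with a median r of 0.15 over genes. EIF3H codes for a subunit of translation initiation factor eIF3, RPS28 for a protein of the small ribosomal subunit and PCIF1 for the enzyme that methylates a cap-adjacent adenosine. EIF3H had 147 CPM in the S34F IP, 151 CPM in the FS IP and 195 CPM in the WT IP, against 106 CPM in S34F IgG, 56.7 CPM in FS IgG and 69.0 CPM in WT IgG. The median r was 0.88 over 13 TOP mRNAs and 0.09 over 10 nucleolar genes in RIP, whereas in the gradients it was 0.19 over 15 TOP mRNAs and 0.54 over 22 nucleolar genes. By median r, NPM1 was thus nearer to the TOP list in RIP and nearer to the nucleolar list in the gradients. Single fractions over monosomes were mixed. At 8-10 ribosomes the log2 fold was 1.17 for NPM1, with medians of 1.04 for nucleolar genes and -1.11 for TOP mRNAs. At 4 ribosomes it was -0.56 for NPM1, with medians of 0.04 for nucleolar genes and -0.76 for TOP mRNAs. At 5 ribosomes it was -0.27 for NPM1, with medians of 0.32 for nucleolar genes and -0.48 for TOP mRNAs. At 6 ribosomes it was -0.20 for NPM1, with medians of 0.27 for nucleolar genes and -0.83 for TOP mRNAs. The list medians of r were not redone without the S34F 8-10 library.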

How the data were processed

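For each gene symbol, the gradient and RIP tables give expected counts as deposited, which were not whole in 57.4% of gradient values and 26.2% of RIP values. TopHat, with no version, is what the submitters' processing notes name. The counter, annotation, use of strand, cluster caller and genome build are not given in the sources used here. Each PAR-CLIP list, deposited for both replicates together, gives read and conversion counts of a cluster and the fraction of T-to-C events in it, per the file headers. A deposited RPKM column was not used.

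Counts were rounded to whole numbers and tested with edgeR 4.0.16 (limma 3.58.1, R 4.3.3): filterByExpr, TMM, a quasi-likelihood fit of all 9 RIP or all 24 gradient libraries with line as a block, and Benjamini-Hochberg adjustment over 11612 or 15945 genes, called at 0.05. DESeq2 1.42.0 was an alternative. Libraries were paired by line, as labelled: deviations from group means correlated at a median r of 0.20 (above 0 in 9 of 9 same-line pairs) in RIP and 0.45 (77 of 84) in the gradients. Entries with gene names turned into dates (28 of the gradients) were dropped, and extra entries of repeated symbols were dropped, 45 in the gradient and 119 in the RIP tables. CPM is the count scaled to a library total of 1000000, and line ratios used a pseudocount of 1 CPM. A count of 0 would allow up to 3 counts. Counting intervals are 95% and exact (Poisson for counts, binomial for shares). PCR reads are not independent molecules, so intervals cover counting error only. Cluster overlap meant at least 1 shared base.

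NPM1 and the gene lists were chosen with earlier results of these data known. Named genes were NPM1, the 5 most alike in each assay (at least 500 counts per gradient, or a median of at least 50 CPM in RIP), and members of the lists: nucleophosmin family, nucleolar ribosome assembly, nucleophosmin partners, TOP mRNAs, and U2AF1 with U2AF2. One TOP gene is listed under 2 symbols (GNB2L1 and RACK1), of which the tables carry GNB2L1.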

Additional observations from a re-analysis of the deposited data

Results flagged for a closer look

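The balance between heavy and light polysomes pointed in opposite directions in the lines. The mean log2 ratio of NPM1 (CPM + 1) at 6, 7 and 8-10 ribosomes over 2 and 3 ribosomes was 0.24 in S34F, -0.62 in FS and -0.47 in WT. At or above these values lay 48.3% of 9501 genes in S34F, 91.5% in FS and 73.8% in WT. Each line gave 1 gradient, so the difference was not tested, and the S34F value includes the S34F 8-10 library in which NPM1 stood at 1484 CPM.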

How the results depend on the processing

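Under the alternatives tried, the IP over IgG fold of NPM1 kept its direction and was called under DESeq2 alone (0.68). Leaving out a line gave 0.49 to 0.95. Without the replicate block (no line term) it was 0.66, and the block changed no call of NPM1. The 8-10 over monosomes fold was no longer called without the S34F line or the S34F 8-10 library (0.61), and leaving out a line gave 0.62 to 1.53. IP over Cytosol, IgG over Cytosol and heavy over light polysomes kept their direction and stayed uncalled. Leaving out a line gave 0.24 (without WT) to 0.61 for IP over Cytosol, -0.34 to -0.21 for IgG over Cytosol and -0.52 to -0.011 for heavy over light polysomes, where leaving out the S34F 8-10 library gave -0.40. At 4 ribosomes leaving out a line gave -0.82 to -0.22 and at 6 ribosomes -0.41 to -0.090. The test across fractions stayed called, at adjusted p up to 0.0387. The fold at 7 ribosomes turned to -0.029 with DESeq2 size factors, -0.029 with DESeq2's test and -0.025 without the S34F 8-10 library, and leaving out a line gave -0.12 to 0.18. The cause was not tested. Those size factors moved the median of all genes over monosomes at 7 ribosomes to -0.16, against -0.02. S34F minus WT in the ribosome index was 0.97 with TMM-scaled CPM, 1.14 and 1.63 with 8 and 10 for the 8-10 fraction, and 0.12 to 1.56 when 1 fraction was left out. FS minus WT was -0.075 with TMM-scaled CPM and -0.045 to 0.23 when 1 fraction was left out. The mean S34F over WT ratio was -0.0085 to 0.32 when 1 fraction was left out. The FS over WT ratio was 0.65 with TMM-scaled CPM and 0.80 to 0.91 when 1 fraction was left out. In PAR-CLIP, S34F over WT cytoplasm was -0.73 with clusters of at least 20 reads and 1.33 with conversion events, and WT cytoplasm over WT chromatin was -0.55, -0.065 with those clusters and -1.40 with those events. Adding pseudogene counts could not be run, since neither table has such entries, and no NPM1 cluster overlapped between the PAR-CLIP lists of these ratios. The 3 lines, at 1 library each, limit every test, with a biological coefficient of variation of 69.8% in RIP and 32.9% in the gradients.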

Other observations

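The lower level of NPM1 at 4 to 6 than at 2 and 3 ribosomes was alike in all 3 lines, a pattern picked after its values were seen. The mean level at 4, 5 and 6 ribosomes over that at 2 and 3 ribosomes was 0.540 in S34F, 0.545 in FS and 0.571 in WT. Of 9501 genes, 97.6% had a ratio at or above NPM1's in S34F, 97.6% in FS and 96.7% in WT.

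In the boundary clusters of all genes, the base before the AG was C in 63.5% of 824 clusters in S34F cytoplasm and in 55.4% of 616 clusters in WT cytoplasm, and T in 18.7% in S34F cytoplasm and in 26.3% in WT cytoplasm. The 2 boundary clusters of NPM1 in S34F cytoplasm had C in 1 and T in the other.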
